A study of Mus musculus with 8 samples.

Results

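The integrated stress response and the unfolded protein response were followed here through 41 listed genes in pancreatic stellate cells (PSCs). The genes were matched by symbol to the deposited table of 12160 genes, and 40 were present. The list was read as 2 arms: 19 genes of the ATF4 arm (stress factors, their effectors, and enzymes of amino acid and one-carbon synthesis) and 22 genes of the ER arm (sensors, chaperones, disulfide isomerases and degradation factors of the endoplasmic reticulum, ER), of which 21 were in the table. The sensor Ern1 was not analysed here.

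PSCs, the fibroblast-like cells that live in the normal pancreas, were represented by 1 immortalized mouse line. Domes of Matrigel, with 20000 cells seeded per the labels, were kept for 4 days in growth medium before the test medium was applied for another 4 days. The shBrca2-CM group (3 libraries) received medium conditioned by KPC organoids, which are cultured mouse pancreatic cancer cells, carrying an shRNA against Brca2, and the shControl-CM group (3 libraries) received medium of KPC organoids with a control shRNA. The control medium group (2 libraries) is titled DMEM, while its treatment label names medium that PSCs had conditioned themselves. The stellate cells themselves carried no shRNA in any group. Because the replicates are culture domes of 1 line, p-values measure the spread between domes. They do not measure a spread between separately made knockdowns.

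When the eIF2 kinases (PERK for a stressed ER, GCN2 for lack of amino acids, PKR and HRI for other stresses) phosphorylate the initiation factor eIF2, most translation slows while the mRNA of the transcription factor ATF4 is read more. ATF4 then raises genes of amino acid supply and stress effectors, among them a phosphatase subunit that ends the signal. Misfolded protein in the ER also acts through IRE1, which splices the mRNA of XBP1, and through ATF6, which is cut in the Golgi; both raise chaperones, disulfide isomerases and degradation factors. Fibroblasts secrete large amounts of matrix protein and depend on this folding machinery.

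Libraries held 655996 to 1095534 counts in the shBrca2-CM group, 1093609 to 1624392 in the shControl-CM group and 4623846 to 5476988 in the control group, so 3 counts amounted to between 0.548 and 4.57 CPM. Levels are given as normalized CPM, counts scaled to library size after TMM correction over all 8 libraries. To be called differentially expressed (DE), a gene needed a mean normalized count over 5, a log2 fold change beyond 0.5 in either direction and an adjusted p-value by edgeR under 0.1. All 40 members were tested in each of the 3 comparisons, and 39 of them had a mean normalized count over 5 in each. Of the stellate and fibroblast markers, 10 of 10 were in the table, with a summed level of 3850 to 5020 CPM in the conditioned media and 9420 to 11300 CPM in control medium. Of the epithelial markers, 3 of 11 were in the table (Krt18, Krt19 and Muc1), summing to 57.7 to 94.1 CPM in the conditioned media and 37.0 to 41.7 CPM in control medium, and Epcam, Cdh1 and Krt8 were not among the genes listed. These 3 did not move together. Krt19 was lower in every conditioned medium library (2.04 to 16.2 CPM) than in control medium (24.3 and 25.4 CPM). Muc1 (37.6 to 68.4 against 15.1 and 9.46 CPM) and Krt18 (5.13 to 19 against 2.26 and 2.15 CPM) were higher. Of the immune markers, 2 of 7 were in the table (7.52 to 23.1 CPM in all libraries), of the endothelial markers 2 of 4 (0 to 3.48 CPM), and of the acinar markers 1 of 4 (45.8 to 83.9 CPM). The shControl-CM libraries differed among themselves more than the shBrca2-CM libraries did. The chi-square of their counts per degree of freedom was 2.99 for replicates 1 and 2, 4.21 for replicates 2 and 3 and 8.35 for replicates 1 and 3, against 1.65 to 1.94 between the shBrca2-CM libraries, which were also shallower, and 6.64 between the 2 control libraries, which were the deepest.

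Between the conditioned media, the question was whether medium of organoids with the Brca2 shRNA acted on the stellate cells differently from medium of organoids with the control shRNA. Of the 40 members, 0 were higher (2, Nupr1 and Canx, at an unadjusted p-value under 0.05 by edgeR, and 0 by DESeq2) and 3 were lower with shBrca2-CM, against 1.58% of the 11035 genes tested called higher and 1.55% called lower. All 3, Stc2, Ddit4 and Ppp1r15a, were stress effectors of the ATF4 arm, and each was at its highest with shControl-CM. In the ER arm 0 of 21 were called by edgeR or by DESeq2's likelihood ratio test; Manf, Pdia6 and Syvn1 were lower and Canx higher at an unadjusted p-value under 0.05 by edgeR. Values of the 3 libraries did not overlap between the groups for 2 members that were higher (Sesn2 and Canx) and for 10 that were lower, where 9.14% and 10.6% of all genes did so. The lower ones were Atf4, Ddit4, Ppp1r15a and Stc2 in the ATF4 arm and Dnajb11, Sdf2l1, Manf, Creld2, Pdia6 and Syvn1 in the ER arm. The median log2 fold change was 0.03 in the ATF4 arm and -0.17 in the ER arm, and 0.03 over all genes. In bulk RNA, fewer cells of a type and less RNA per cell cannot be told apart.

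Against control medium, the question was what each conditioned medium did to the cells. With shControl-CM, 6 of 19 members of the ATF4 arm rose and 0 fell, while in the ER arm 1 of 21 rose and 8 fell; of the 12086 genes tested, 18.2% were called higher and 18.9% lower. With shBrca2-CM, 3 of 19 rose and 0 fell in the ATF4 arm, and 2 of 21 rose and 11 fell in the ER arm, against 18.6% called higher and 19.2% called lower of the 12049 genes tested. In shares, the ATF4 arm's increases with shBrca2-CM were close to those of all genes, and the ER arm's decreases with either medium were above them. Of the decreases in the ATF4 arm, DESeq2 called 0 with either medium, and Psat1 with shBrca2-CM was the only one with an unadjusted p-value under 0.05 by edgeR. Without control medium replicate 1 the decreases called with shControl-CM numbered 1 in place of 8, with the ER arm's median at -0.42 and lower calls over all genes down from 2288 to 882. With the GC content of transcript ends as an offset the ER arm's median with shControl-CM was -0.13. The summed level of the stellate markers was also lower in every conditioned medium library than in control medium, carried largely by Vim (243 to 749 CPM against 3400 and 4110 CPM). The collagen genes, Sparc and Fn1 were also lower in all 6 conditioned medium libraries than in both control medium libraries, while Pdgfrb overlapped (220 to 418 against 293 and 304 CPM) and Thy1 was higher (576 to 1000 against 200 and 262 CPM). Their part in the ER arm's values was not tested. The median log2 fold change was 0.10 in the ATF4 arm and -0.45 in the ER arm with shControl-CM, beside -0.10 over all genes. It was 0.23 and -0.53 with shBrca2-CM, beside -0.05 over all genes. Both comparisons use the same 2 control libraries, so their values are given side by side and do not support each other. When libraries were scaled to total counts instead of by TMM, the median of all genes moved to -0.21 with shControl-CM, and the medians of the ATF4 arm (-0.02) and the ER arm (-0.57) moved with it.

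**Figure D1:**
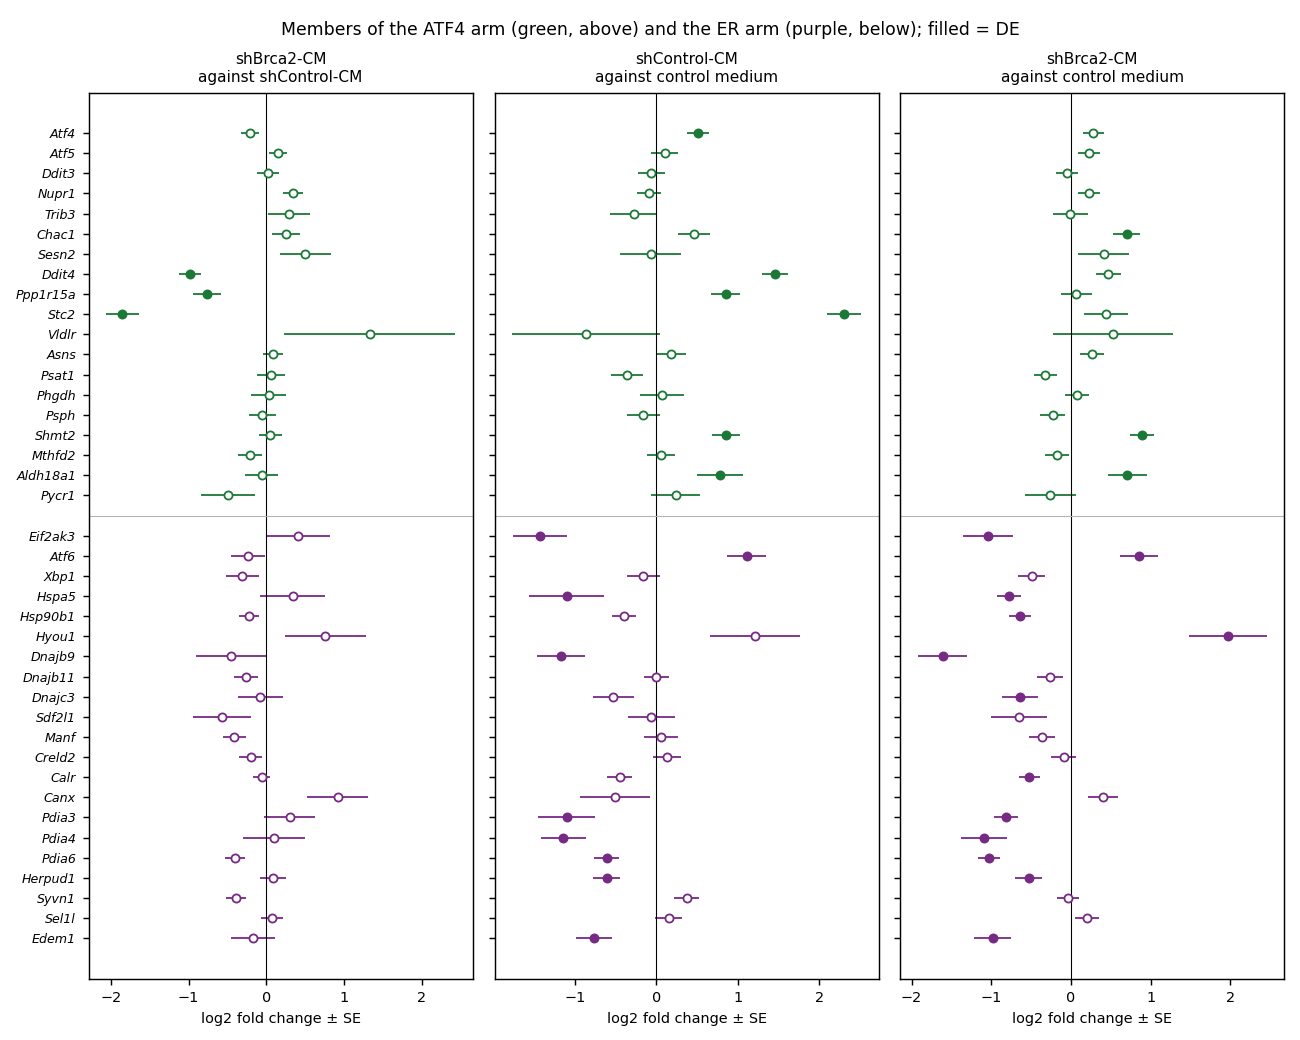
Log2 fold change (horizontal axis, with its standard error) of the 19 ATF4 arm members (green) and the 21 ER arm members in the table (purple) in the 3 comparisons; filled points are DE. Between the conditioned media only Stc2, Ddit4 and Ppp1r15a are filled, whereas against control medium most filled ER arm points lie left of 0 and all filled ATF4 arm points lie right of it.

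The transcription factors of the ATF4 arm moved little. Atf4, the factor that gives the arm its name, was at 985, 1010 and 1100 normalized CPM in shBrca2-CM replicates 1 to 3, at 1170, 1270 and 1220 CPM with shControl-CM and at 857 and 845 CPM in control medium. The 3 groups did not overlap, in the order control medium, shBrca2-CM, shControl-CM. Atf4 rose with shControl-CM against control medium (log2 fold change 0.51 ± 0.14 SE, adjusted p = 0.0219 by edgeR), just past the fold threshold. It was at 0.28 (adjusted p = 0.0819 by edgeR) with shBrca2-CM against control medium and at -0.21 (adjusted p = 0.451 by edgeR) between the conditioned media, neither a call. Because translation of its mRNA controls ATF4, these values do not give the amount of the protein. The increase with shControl-CM was no longer called without shControl-CM replicate 2 (log2 fold change 0.48), with total count scaling (0.39), with at least 5 counts in every library (0.43), with thinned libraries (0.47), without control medium replicate 1 (0.54, adjusted p = 0.13 by edgeR) or without control medium replicate 2 (0.50, adjusted p = 0.134 by edgeR). Atf5, Ddit3 (which encodes CHOP, a factor of the death branch of the response) and Nupr1 were called in none of the 3 comparisons, with log2 fold changes between -0.09 and 0.34. Ddit3 was at 213 to 299 CPM in all 8 libraries.

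The stress effectors included the members with the largest differences between the conditioned media and with shControl-CM against control medium. Stc2 encodes stanniocalcin 2, a secreted glycoprotein induced by ER stress. It was at 17.4, 19.9 and 23.1 CPM with shBrca2-CM, at 67.3, 82.1 and 77.4 CPM with shControl-CM and at 15.6 and 14.6 CPM in control medium. Every shControl-CM library was above every other library, with no overlap. Stc2 was 3.61-fold lower with shBrca2-CM than with shControl-CM (log2 fold change -1.85 ± 0.21 SE, adjusted p = 0.000513 by edgeR) and 4.94-fold higher with shControl-CM than in control medium (log2 fold change 2.30 ± 0.21 SE, adjusted p = 5.7e-05 by edgeR). With shBrca2-CM against control medium its log2 fold change of 0.44 was not called (SE 0.28, adjusted p = 0.211 by edgeR).

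Ddit4 encodes REDD1, which restrains the growth kinase complex mTORC1 and also responds to low oxygen and glucocorticoids. It was at 124, 107 and 138 CPM with shBrca2-CM, at 236, 259 and 249 CPM with shControl-CM and at 84.1 and 95.2 CPM in control medium. The shControl-CM libraries again stood above all others, and the shBrca2-CM libraries lay above the control libraries. Ddit4 was 1.97-fold lower with shBrca2-CM than with shControl-CM (log2 fold change -0.98 ± 0.14 SE, adjusted p = 0.00279 by edgeR) and 2.75-fold higher with shControl-CM than in control medium (log2 fold change 1.46 ± 0.16 SE, adjusted p = 0.000165 by edgeR). With shBrca2-CM against control medium its log2 fold change was 0.47 (adjusted p = 0.015 by edgeR), under the fold threshold; it passed that threshold without shBrca2-CM replicate 2 (0.56) and without control medium replicate 2 (0.57).

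Ppp1r15a encodes GADD34, a subunit of the phosphatase that removes the phosphate from eIF2. It was at 37.6, 48.5 and 47.9 CPM with shBrca2-CM, at 80.7, 73.4 and 78.1 CPM with shControl-CM and at 44.1 and 41.7 CPM in control medium. The shControl-CM libraries were the 3 highest, and the shBrca2-CM libraries overlapped the control libraries. It was 1.69-fold lower with shBrca2-CM than with shControl-CM (log2 fold change -0.76 ± 0.18 SE, adjusted p = 0.0514 by edgeR) and 1.80-fold higher with shControl-CM than in control medium (log2 fold change 0.85 ± 0.18 SE, adjusted p = 0.00567 by edgeR). The call between the conditioned media was lost with DESeq2's likelihood ratio test (adjusted p = 0.117 by DESeq2). It was also lost without shBrca2-CM replicate 1 (log2 fold change -0.66, adjusted p = 0.206 by edgeR), replicate 2 (-0.81, adjusted p = 0.166 by edgeR) or replicate 3 (-0.81, adjusted p = 0.163 by edgeR), and without shControl-CM replicate 2 (-0.81, adjusted p = 0.132 by edgeR). Stc2 and Ddit4 stayed past the thresholds in each of the 15 other settings that kept them, with log2 fold changes of -1.97 to -1.74 and -1.07 to -0.87; at a stricter threshold of 1 on the log2 scale, Stc2 alone remained.

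The other effectors did not follow these 3. Chac1, which encodes an enzyme that breaks down glutathione, was at 103, 82.1 and 102 CPM with shBrca2-CM, at 70.5, 96.6 and 79.5 CPM with shControl-CM and at 53.4 and 64.9 CPM in control medium. The conditioned media overlapped each other and lay above control medium. Chac1 rose with shBrca2-CM against control medium (log2 fold change 0.70 ± 0.17 SE, adjusted p = 0.000669 by edgeR); with shControl-CM its log2 fold change of 0.46 was not called, but it reached 0.57 (adjusted p = 0.0387 by edgeR) without shControl-CM replicate 1. The conditioned media differed by 0.25 (adjusted p = 0.593 by edgeR) in this gene, so the 2 increases were not shown to differ. Trib3, a pseudokinase, and Sesn2, an inhibitor of mTORC1, were called in none of the comparisons. Sesn2 was at 15.1 to 17.4 CPM with shBrca2-CM and at 8.83 to 14.1 CPM with shControl-CM, without overlap (log2 fold change 0.50, adjusted p = 0.57 by edgeR), and without control medium replicate 1 it was called higher with shBrca2-CM than in control medium (0.93). Vldlr, a lipoprotein receptor, was counted 0, 4 and 3 times with shBrca2-CM and 1, 3 and 0 times with shControl-CM and so could not be compared at this depth.

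**Figure D2:**
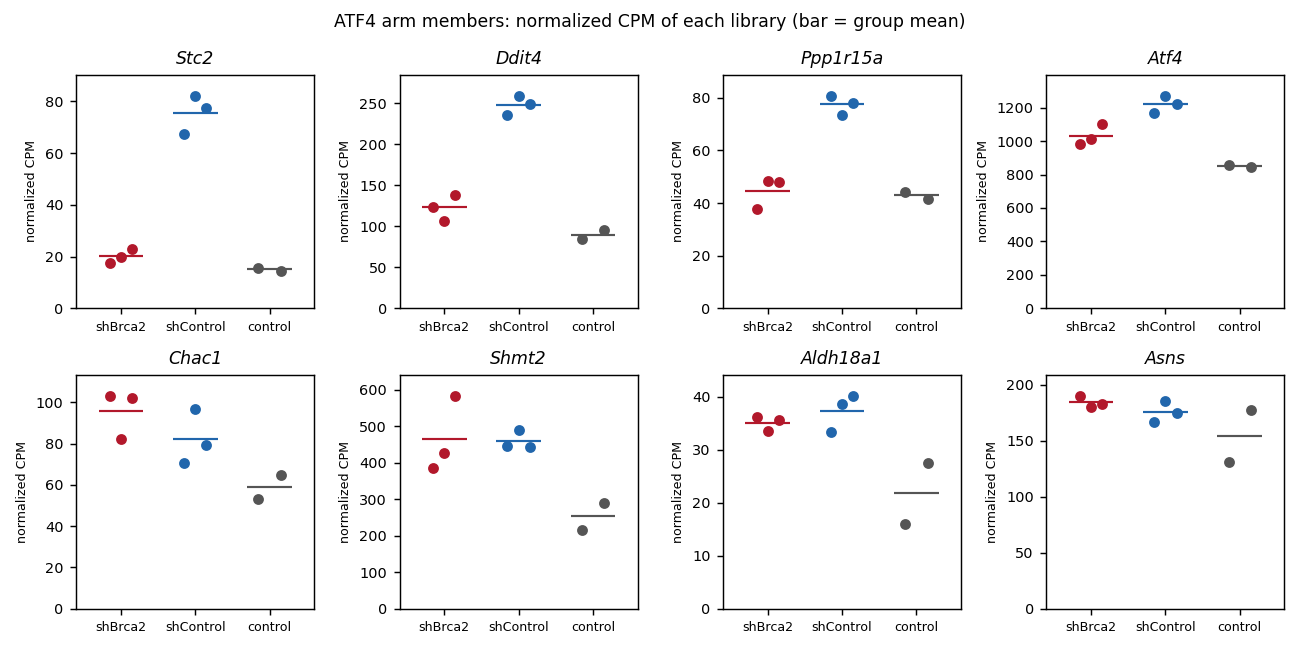
Normalized CPM (vertical axis, from 0) of 8 members of the ATF4 arm in each library, by group, with the group mean as a bar (3, 3 and 2 libraries). For Stc2, Ddit4 and Ppp1r15a the shControl-CM points stand alone at the top, at 67.3 to 82.1, 236 to 259 and 73.4 to 80.7 CPM, whereas Shmt2 and Aldh18a1 are at a like height in both conditioned media.

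The enzymes that ATF4 raises when amino acids run short fell into 2 kinds. Shmt2, the mitochondrial enzyme that turns serine into glycine and a one-carbon unit, was at 385, 428 and 583 CPM with shBrca2-CM, at 445, 491 and 444 CPM with shControl-CM and at 217 and 290 CPM in control medium. Every conditioned medium library was above both control libraries. It rose with shControl-CM (log2 fold change 0.85 ± 0.17 SE, adjusted p = 0.00465 by edgeR) and with shBrca2-CM (log2 fold change 0.89 ± 0.15 SE, adjusted p = 3.01e-06 by edgeR). Aldh18a1, which starts proline synthesis from glutamate, was at 36.2, 33.6 and 35.5 CPM with shBrca2-CM, at 33.3, 38.7 and 40.1 CPM with shControl-CM and at 16.0 and 27.5 CPM in control medium. It too was above the control libraries throughout and rose with both media (log2 fold changes 0.78 and 0.71 with shControl-CM and shBrca2-CM, adjusted p = 0.06 by edgeR and 0.0151). The call with shControl-CM was lost with DESeq2's likelihood ratio test (0.77, adjusted p = 0.116 by DESeq2) and with thinned libraries (0.88, adjusted p = 0.114 by edgeR). Both calls also depended on control medium replicate 1: without it Aldh18a1 was at 0.45 (adjusted p = 0.386 by edgeR) and 0.35 (adjusted p = 0.308 by edgeR). Without shControl-CM replicate 2 the first was at 0.75 (adjusted p = 0.157 by edgeR).

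The other 6 enzymes were called in none of the comparisons. They are Asns (asparagine synthetase), the serine synthesis enzymes Phgdh, Psat1 and Psph, the folate enzyme Mthfd2 and the proline enzyme Pycr1, and their log2 fold changes lay between -0.49 and 0.26. Asns was at 180 to 190 CPM with shBrca2-CM, at 167 to 186 CPM with shControl-CM and at 131 and 178 CPM in control medium; without control medium replicate 2 it was called higher with shBrca2-CM than in control medium (0.50). Psat1 was lower in every conditioned medium library (145 to 229 CPM) than in the control libraries (245 and 266 CPM), without a call in either comparison. Between the conditioned media no enzyme had a p-value under 0.05 before adjustment in edgeR, the smallest being 0.183 for Pycr1.

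RefSeq promoter windows on GRCm38.p6, the mm10 build that the submitters' processing notes name, were searched for the elements through which these factors are known to act. A window runs from 250 bases before to 50 bases after the annotated start, and 38 of the 41 listed genes had one. The core of the element bound by ATF4 with C/EBP factors was spelled TGATGNAA and searched on both strands, with N for any base. It was found in 3.97% of 32851 windows, and in 6 of 19 genes of the ATF4 arm (Asns, Chac1, Nupr1, Pycr1, Trib3 and Vldlr) and 1 of 19 with a window in the ER arm (Herpud1). None of the 3 effectors that differed between the conditioned media held it in this window. The site of Chac1, the only one of these genes called higher in a comparison, is shown beside those of Asns and Nupr1, which were not called, each read 5′ to 3′ on the gene's strand with the letters of the core in capitals.
Chac1 (chr2:119351034-119351071, + strand): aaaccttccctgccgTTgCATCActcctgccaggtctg
Asns (chr6:7693210-7693247, - strand): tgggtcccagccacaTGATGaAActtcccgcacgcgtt
Nupr1 (chr7:126625558-126625595, - strand): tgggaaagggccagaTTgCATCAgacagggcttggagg
The Asns site reads as spelled and the other 2 read as its reverse complement.

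Among the ER sensors, PERK and ATF6 went apart. Eif2ak3, the gene of PERK, was at 10.1, 9.96 and 9.76 CPM with shBrca2-CM, at 10.3, 6.76 and 5.43 CPM with shControl-CM and at 20.5 and 20.4 CPM in control medium, from 7 to 16 counts per conditioned medium library. All conditioned medium libraries were below both control libraries. It fell with shControl-CM (log2 fold change -1.43 ± 0.33 SE, adjusted p = 0.00865 by edgeR) and with shBrca2-CM (log2 fold change -1.04 ± 0.31 SE, adjusted p = 0.00546 by edgeR). Atf6, whose protein is the ER-anchored factor of the response, was at 28.9, 36.1 and 31.1 CPM with shBrca2-CM, at 38.4, 42.5 and 35.3 CPM with shControl-CM and at 18.8 and 16.8 CPM in control medium. It lay above control medium in every conditioned medium library and rose with shControl-CM (log2 fold change 1.11 ± 0.24 SE, adjusted p = 0.0067 by edgeR) and with shBrca2-CM (log2 fold change 0.85 ± 0.24 SE, adjusted p = 0.00343 by edgeR). Xbp1, the target of IRE1, was at 55.0 to 73.4 CPM with shBrca2-CM, 67.9 to 103 CPM with shControl-CM and 97.5 and 87.9 CPM in control medium and was not called, its log2 fold change with shBrca2-CM against control medium (-0.49, adjusted p = 0.0193 by edgeR) being just under the threshold. It passed in that comparison without shBrca2-CM replicate 1 (-0.55), without shBrca2-CM replicate 2 (-0.56), without control medium replicate 2 (-0.56), without the filter on low counts (-0.51) and with at least 5 counts in every library (-0.53). Gene counts do not separate spliced from unspliced Xbp1.

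The element through which ATF6 and XBP1 act on chaperone genes (the ER stress response element, ERSE) was searched on both strands as CCAAT and CCACG with 9 bases of any kind between them. It was found in 0.119% of the 32851 promoter windows, in 8 of the 19 ER arm genes that had a window and in 0 of 19 of the ATF4 arm. A related element, ERSE-II, searched as ATTGG and CCACG with 1 base between them, was in 0.0365% of all windows and in Herpud1 and Dnajb11. The elements do not overlap one another in these windows. Of the 8 genes with an ERSE, 0 were called between the conditioned media, 2 (Hspa5 and Pdia6) fell with shControl-CM and 5 (Hspa5, Hsp90b1, Dnajc3, Calr and Pdia6) fell with shBrca2-CM, beside 18.9% and 19.2% of all genes called lower; Canx, Creld2 and Syvn1 were called in no comparison. The sites of all 8 are shown because they pick out members of the ER arm by sequence and not by their levels. The fixed letters are in capitals, and each line reads 5′ to 3′ on the gene's strand.
Hspa5 (chr2:34772010-34772058, + strand): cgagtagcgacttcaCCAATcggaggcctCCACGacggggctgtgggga
Hsp90b1 upstream site (chr10:86705623-86705671, - strand): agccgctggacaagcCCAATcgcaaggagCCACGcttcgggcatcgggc
Hsp90b1 downstream site (chr10:86705518-86705566, - strand): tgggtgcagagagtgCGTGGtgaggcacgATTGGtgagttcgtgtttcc
Dnajc3 (chr14:118937812-118937860, + strand): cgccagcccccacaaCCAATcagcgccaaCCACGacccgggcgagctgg
Creld2 (chr15:88819505-88819553, + strand): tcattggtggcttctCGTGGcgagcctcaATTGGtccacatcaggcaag
Calr (chr8:84847060-84847108, - strand): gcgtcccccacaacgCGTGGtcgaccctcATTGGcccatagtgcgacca
Canx (chr11:50325785-50325833, - strand): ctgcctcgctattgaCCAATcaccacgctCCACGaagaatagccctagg
Pdia6 (chr12:17266476-17266524, + strand): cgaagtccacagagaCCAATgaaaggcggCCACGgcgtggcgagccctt
Syvn1 (chr19:6046517-6046565, + strand): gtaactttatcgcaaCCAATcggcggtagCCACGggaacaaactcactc
The sites of Creld2, Calr and the downstream one of Hsp90b1 are reverse complements of the spelled element.

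Of the 9 chaperones and cochaperones, 2 fell with shControl-CM (median log2 fold change -0.06), and 4 fell and 1 rose with shBrca2-CM (median -0.64), beside 18.9% and 19.2% of all genes called lower. Hspa5 encodes BiP, the main chaperone of the ER, which also holds the sensors inactive. It was at 172, 264 and 163 CPM with shBrca2-CM, at 300, 108 and 66.6 CPM with shControl-CM and at 366 and 317 CPM in control medium. All conditioned medium libraries were below the control libraries, and the shControl-CM libraries spanned a wider range than the shBrca2-CM libraries, which lay inside it. Hspa5 fell with shBrca2-CM (log2 fold change -0.78 ± 0.15 SE, adjusted p = 3.67e-05 by edgeR) and with shControl-CM (log2 fold change -1.10 ± 0.46 SE, adjusted p = 0.089 by edgeR). The second call was lost with DESeq2 (-1.12, adjusted p = 0.289 by DESeq2), without shControl-CM replicate 2 (-0.90, adjusted p = 0.282 by edgeR), without control medium replicate 1 (-0.98, adjusted p = 0.361 by edgeR) and without control medium replicate 2 (-1.21, adjusted p = 0.251 by edgeR), and the first in the fit of all 3 groups (-0.78, adjusted p = 0.153 by edgeR). Its size with shControl-CM also turned on single libraries, at -1.99 without replicate 1 (adjusted p = 1.79e-06 by edgeR) and -0.71 without replicate 3 (adjusted p = 0.025 by edgeR). Comparing the conditioned media, its log2 fold change of 0.34 was not called (SE 0.42, adjusted p = 0.797 by edgeR). Without shControl-CM replicate 1 it was 1.21 (adjusted p = 0.00629 by edgeR), and Canx (1.49) and Pdia3 (0.91) were then called higher with shBrca2-CM as well. Over all genes that fit called 506 of 10741 higher, beside 174 of 11035 with all libraries.

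The 250 bases before the start of Hspa5 show its element in place, with the fixed letters in capitals, in the stretch chr2:34771840-34772089 of the + strand.
Hspa5: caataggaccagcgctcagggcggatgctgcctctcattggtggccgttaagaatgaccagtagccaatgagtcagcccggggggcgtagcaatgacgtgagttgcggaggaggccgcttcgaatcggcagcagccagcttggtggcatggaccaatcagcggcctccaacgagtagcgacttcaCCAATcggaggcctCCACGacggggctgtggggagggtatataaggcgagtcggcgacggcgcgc

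Dnajb9, also ERdj4, is a cochaperone of BiP. It was at 2.89, 9.96 and 13.3 CPM with shBrca2-CM, at 14.7, 15.5 and 8.83 CPM with shControl-CM and at 28.3 and 29.4 CPM in control medium, from 2 to 23 counts in the conditioned media. The conditioned media overlapped each other and lay below control medium. It fell with shControl-CM (log2 fold change -1.17 ± 0.29 SE, adjusted p = 0.0138 by edgeR) and with shBrca2-CM (log2 fold change -1.61 ± 0.31 SE, adjusted p = 2.19e-05 by edgeR). The first of these calls was lost without control medium replicate 1 (-1.18, adjusted p = 0.12 by edgeR) or replicate 2 (-1.14, adjusted p = 0.123 by edgeR).

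Hsp90b1 (GRP94, a chaperone of integrins and Toll-like receptors) was at 388, 439 and 358 CPM with shBrca2-CM, at 515, 456 and 431 CPM with shControl-CM and at 599 and 630 CPM in control medium. Both conditioned media were below control medium, and their ranges overlapped. It fell with shBrca2-CM (log2 fold change -0.64 ± 0.14 SE, adjusted p = 0.000126 by edgeR), whereas -0.40 with shControl-CM was not a call (adjusted p = 0.0644 by edgeR). Dnajc3 (p58IPK, a cochaperone of BiP) was at 23.1, 34.8 and 22.2 CPM with shBrca2-CM, at 35.2, 28.0 and 22.4 CPM with shControl-CM and at 42.9 and 39.6 CPM in control medium. It fell with shBrca2-CM (log2 fold change -0.64 ± 0.23 SE, adjusted p = 0.0192 by edgeR). Without shBrca2-CM replicate 3 this call was lost (-0.49, adjusted p = 0.158 by edgeR). It was also lost with thinned libraries (-0.03), with a replicate block and with the GC content of transcript ends as an offset. With shControl-CM a call appeared without shControl-CM replicate 1 (-0.73, adjusted p = 0.0306 by edgeR).

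Hyou1, the ER chaperone GRP170, went the other way from few counts. Its reads numbered 7, 4 and 13 in the shBrca2-CM libraries, 5, 4 and 13 with shControl-CM and 16 and 8 in the deeper control libraries. In normalized CPM these were 10.1, 4.98 and 11.5, then 3.20, 3.87 and 8.83, then 2.78 and 1.72. It rose with shBrca2-CM against control medium (log2 fold change 1.97 ± 0.49 SE, adjusted p = 0.000864 by edgeR), a call that was lost when all libraries were thinned to the smallest total (0.78, adjusted p = 0.458 by edgeR). With shControl-CM it was at 1.21 (adjusted p = 0.117 by edgeR) and was called without shControl-CM replicate 1 (1.53, adjusted p = 0.0461 by edgeR).

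The remaining 4 of this group, Dnajb11, Sdf2l1, Creld2 and Manf, were called in no comparison. Manf and Creld2 encode proteins induced by ER stress. Between the conditioned media all 4 were lower with shBrca2-CM in every library, with log2 fold changes of -0.57 to -0.20. Manf was at 143, 108 and 130 CPM with shBrca2-CM, at 155, 171 and 187 CPM with shControl-CM and at 127 and 199 CPM in control medium (-0.41 on the log2 scale between the conditioned media, adjusted p = 0.253 by edgeR). Without control medium replicate 1 Manf was called lower with shBrca2-CM than in control medium (-0.65, adjusted p = 0.000964 by edgeR), and Sdf2l1 was called so without shBrca2-CM replicate 2 (-0.88, adjusted p = 0.0994 by edgeR).

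**Figure D3:**
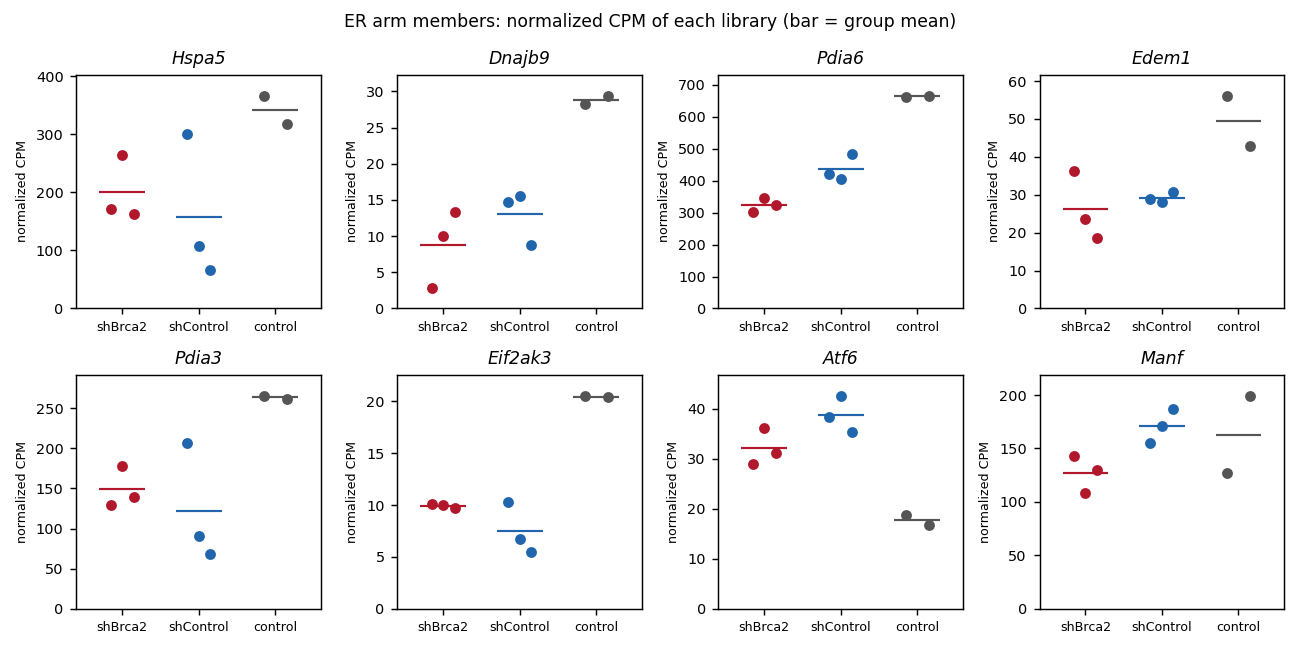
Normalized CPM (vertical axis, from 0) of 8 members of the ER arm in each library, by group, with the group mean as a bar (3, 3 and 2 libraries). Hspa5, Dnajb9, Pdia6, Edem1, Pdia3 and Eif2ak3 lie below the control libraries in every conditioned medium library, Atf6 lies above them, and the shControl-CM points of Hspa5 (66.6 to 300 CPM) and Pdia3 (68.6 to 206 CPM) are spread widely.

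The lectin chaperones and disulfide isomerases, which fold glycoproteins and join their cysteines, had decreases in 3 of 5 members with shControl-CM and 4 of 5 with shBrca2-CM, against 18.9% and 19.2% of all genes. Pdia6 was at 301, 347 and 325 CPM with shBrca2-CM, at 420, 406 and 485 CPM with shControl-CM and at 662 and 666 CPM in control medium. The 3 groups did not overlap, and shBrca2-CM was lowest. It fell with shControl-CM (log2 fold change -0.61 ± 0.15 SE, adjusted p = 0.0113 by edgeR) and with shBrca2-CM (log2 fold change -1.03 ± 0.14 SE, adjusted p = 6.92e-09 by edgeR). From shControl-CM to shBrca2-CM it differed by -0.40 on the log2 scale (SE 0.13, adjusted p = 0.156 by edgeR), not a call; with all libraries thinned to the smallest total it was called at -0.52 (adjusted p = 0.0655 by edgeR). The decrease with shControl-CM missed the threshold without control medium replicate 1 (-0.60, adjusted p = 0.101 by edgeR).

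Pdia3 (ERp57, the isomerase that works with calreticulin and calnexin) was at 129, 178 and 139 CPM with shBrca2-CM, at 206, 90.8 and 68.6 CPM with shControl-CM and at 265 and 262 CPM in control medium. As for Hspa5, shControl-CM replicate 1 was the highest of the conditioned medium libraries and replicate 3 the lowest. It fell with shBrca2-CM (log2 fold change -0.82 ± 0.15 SE, adjusted p = 8.36e-06 by edgeR) and with shControl-CM (log2 fold change -1.10 ± 0.35 SE, adjusted p = 0.0372 by edgeR). The call with shControl-CM was lost without shControl-CM replicate 2 (-0.94), control medium replicate 1 (-1.08) or control medium replicate 2 (-1.12), with edgeR adjusted p-values of 0.161, 0.201 and 0.181. Without shControl-CM replicate 1 the fold change was larger, at -1.74 (adjusted p = 2.46e-06 by edgeR).

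Pdia4 (ERp72) was at 15.9, 16.2 and 7.10 CPM with shBrca2-CM, at 9.61, 14.5 and 12.2 CPM with shControl-CM and at 26.9 and 25.6 CPM in control medium, from 8 to 18 counts in the conditioned media. It fell with shBrca2-CM (log2 fold change -1.09 ± 0.29 SE, adjusted p = 0.00202 by edgeR) and with shControl-CM (log2 fold change -1.14 ± 0.28 SE, adjusted p = 0.0121 by edgeR), though not without control medium replicate 1 in the latter (-1.08, adjusted p = 0.129 by edgeR). Both conditioned media lay below control medium and overlapped each other.

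Calr encodes calreticulin. It was at 1880, 1920 and 1830 CPM with shBrca2-CM, at 2100, 2000 and 1860 CPM with shControl-CM and at 2880 and 2520 CPM in control medium. It fell with shBrca2-CM (log2 fold change -0.52 ± 0.13 SE, adjusted p = 0.000586 by edgeR), near the fold threshold, and was at -0.45 with shControl-CM (adjusted p = 0.0452 by edgeR). Without control medium replicate 1 the first was -0.42 and no longer a call. Canx, the membrane-bound calnexin, was the exception of the group. It was at 56.4, 70.9 and 55.0 CPM with shBrca2-CM, at 51.9, 34.8 and 10.9 CPM with shControl-CM and at 41.2 and 51.2 CPM in control medium. It was highest with shBrca2-CM in every library and was called in no comparison (0.92 on the log2 scale between the conditioned media ± 0.39 SE, adjusted p = 0.335 by edgeR). Without shControl-CM replicate 1 it was lower with shControl-CM than in control medium (-1.10, adjusted p = 0.0174 by edgeR), and without control medium replicate 2 it was higher with shBrca2-CM than in control medium (0.56, adjusted p = 0.0251 by edgeR).

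Of the genes of ER-associated degradation, which returns misfolded protein to the cytosol for the proteasome, 2 of 4 fell in each comparison with control medium, where 18.9% (shControl-CM) and 19.2% (shBrca2-CM) of all genes fell. Edem1, which takes misfolded glycoproteins out of the folding cycle, was at 36.2, 23.6 and 18.6 CPM with shBrca2-CM, at 28.8, 28.0 and 30.6 CPM with shControl-CM and at 56.1 and 42.8 CPM in control medium. Every conditioned medium library was below both control libraries. It fell with shControl-CM (log2 fold change -0.77 ± 0.22 SE, adjusted p = 0.0241 by edgeR) and with shBrca2-CM (log2 fold change -0.98 ± 0.23 SE, adjusted p = 0.00045 by edgeR). The first was at -0.54 and not called without control medium replicate 1. Both calls were lost with the GC content of transcript ends as an offset (-0.07 and -0.48). Herpud1, a scaffold of the ubiquitin ligase complex, was at 68.0, 73.4 and 79.9 CPM with shBrca2-CM, at 74.3, 61.8 and 76.1 CPM with shControl-CM and at 100 and 115 CPM in control medium. It too was lower in every conditioned medium library and fell with shControl-CM (log2 fold change -0.61 ± 0.17 SE, adjusted p = 0.0241 by edgeR) and with shBrca2-CM (log2 fold change -0.53 ± 0.17 SE, adjusted p = 0.00787 by edgeR). Its calls were lost without shControl-CM replicate 2 (-0.53, adjusted p = 0.106 by edgeR), control medium replicate 1 (-0.69, adjusted p = 0.102 by edgeR) or control medium replicate 2 (-0.51, adjusted p = 0.182 by edgeR) with shControl-CM, and without shBrca2-CM replicate 1 (-0.49) or control medium replicate 2 (-0.42) with shBrca2-CM.

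Herpud1 was the only member with both the ATF4 core (first capitals, as its reverse complement) and an ERSE-II (second capitals) before its start. The stretch is chr8:94386179-94386428 of the + strand.
Herpud1: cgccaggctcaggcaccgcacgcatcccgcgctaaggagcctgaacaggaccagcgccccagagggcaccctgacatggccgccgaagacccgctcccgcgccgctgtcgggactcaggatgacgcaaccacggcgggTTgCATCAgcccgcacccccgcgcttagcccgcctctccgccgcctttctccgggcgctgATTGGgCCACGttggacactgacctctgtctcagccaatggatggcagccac

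The ubiquitin ligase Syvn1 (HRD1) and its partner Sel1l were called in no comparison. Syvn1 was at 190 to 213 CPM with shBrca2-CM, 254 to 283 CPM with shControl-CM and 207 and 208 CPM in control medium. The conditioned media did not overlap, with a log2 fold change between them of -0.39 (SE 0.13, adjusted p = 0.179 by edgeR). Sel1l was at 124 to 157 CPM in the conditioned media and at 128 CPM in both control libraries.

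**Figure D4:**
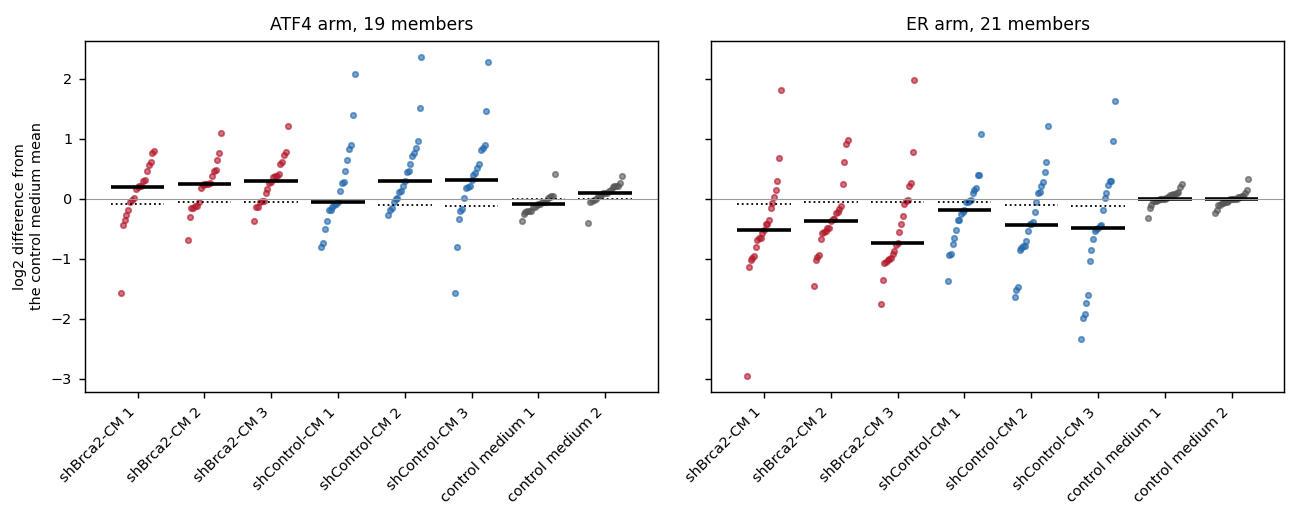
Log2 difference of each member from its control medium mean (vertical axis) in each of the 8 libraries, for the ATF4 arm and the ER arm; thick bars are medians of the members and dotted bars medians of all genes. The ER arm median is below that of all genes in all 6 conditioned medium libraries (-0.74 to -0.18), and the ATF4 arm median is above it in 5 of them (0.19 to 0.31) and at -0.06 in shControl-CM replicate 1.

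Library by library, the ER arm's median difference from the control mean, on the log2 scale, was -0.52, -0.37 and -0.74 with shBrca2-CM and -0.18, -0.43 and -0.49 with shControl-CM. Of its 21 members 16, 17 and 17 were below the control mean in the shBrca2-CM libraries and 15, 14 and 14 in the shControl-CM libraries. The ATF4 arm had 12, 12 and 13 of 19 above the control mean with shBrca2-CM and 9, 14 and 14 with shControl-CM. The count of decreases with shControl-CM moved with single libraries. Without control medium replicate 1, only Eif2ak3 was still called lower with shControl-CM (1 instead of 8), without control medium replicate 2 there were 4, and without shControl-CM replicate 2 there were 5. Over all genes, lower calls also dropped without either control library, from 2288 of 12086 tested to 882 of 11575 without replicate 1 and 1056 of 11777 without replicate 2, while the ER arm's median was -0.42 and -0.37, beside -0.45 with all libraries. With shBrca2-CM the count lay between 10 and 13 when any 1 library was left out.

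The arms also differed in the base composition of their transcript ends, from which these libraries were made. GC content of the last 300 bases had a median of 49.0% in the ATF4 arm and 41.7% in the ER arm, beside 43.0% over all genes. Against control medium, the fold change of all genes moved with it. With genes ranked by GC into 4 bins, from lowest to highest, the median log2 fold change was -0.55, -0.19, 0.04 and 0.24 with shControl-CM and -0.41, -0.14, 0.04 and 0.21 with shBrca2-CM. Of the ER arm 8 members were in the lowest bin and 1 in the highest, and of the ATF4 arm 1 and 8. For the 2 conditioned media compared with each other the bins were at 0.11, 0.04, 0.01 and -0.02. The shControl-CM libraries also differed along GC among themselves: the median deviation from their group mean (log2 CPM) was 0.25 in replicate 1 and -0.21 in replicate 3 in the lowest bin, and -0.11 and 0.13 in the highest. With GC content taken as an offset in the fit, an alternative chosen after the data were seen, 7 members of the ER arm were lower with shControl-CM (3 higher) and 6 with shBrca2-CM (4 higher). Over all genes that fit called 1930 lower and 2449 higher of 12086 with shControl-CM, and 1918 and 2333 of 12049 with shBrca2-CM; the ER arm's counts of higher members are near those shares. Hspa5, Dnajb9, Pdia3, Pdia4 and Pdia6 were called lower with both media in that fit, Hspa5 at -0.99 and -0.69 with shControl-CM and shBrca2-CM and Pdia6 at -0.65 and -1.07. Edem1 lost its call in both (-0.07 and -0.48), and Eif2ak3 (-0.50), Hsp90b1 (-0.34), Dnajc3 (-0.18), Calr (-0.39) and Herpud1 (-0.50) lost theirs with shBrca2-CM. Manf was called lower with shBrca2-CM (-0.56), Sel1l higher with both (0.63 and 0.52), Canx higher with shBrca2-CM (0.65) and Hyou1 higher with shControl-CM (1.29). In the ATF4 arm Atf4 lost its call (0.49), and Stc2 (2.26), Ddit4 (1.41), Ppp1r15a (0.69) and Shmt2 (0.62) kept theirs with shControl-CM. The median of the ER arm was then -0.13 with shControl-CM and -0.48 with shBrca2-CM, beside 0.01 and 0.00 over all genes. That of the ATF4 arm was 0.05 and 0.13, in place of 0.10 and 0.23 without the offset, so with shControl-CM it was close to that of all genes.

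**Figure D5:**
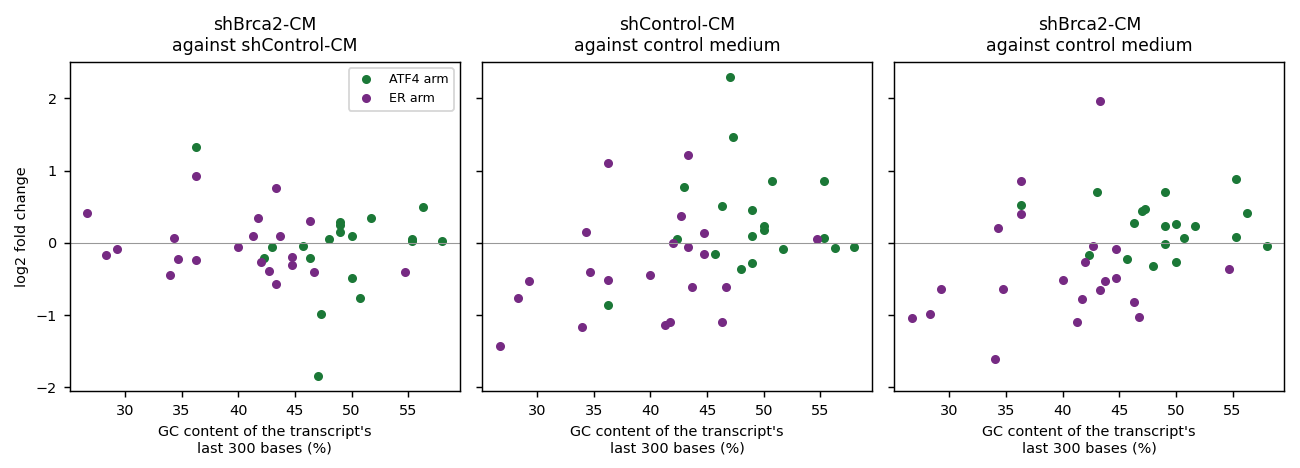
Log2 fold change of each member (vertical axis) against the GC content of the last 300 bases of its transcript (horizontal axis, percent) in the 3 comparisons. ER arm genes (purple, median 41.7%) lie mostly left of ATF4 arm genes (green, median 49.0%), and Stc2 and Ddit4 are the highest points with shControl-CM against control medium and the lowest between the conditioned media.

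Genes around the 2 arms were counted from 7 further lists. Their counts against control medium are to be read beside the shares of all genes, 18.2% higher and 18.9% lower with shControl-CM and 18.6% and 19.2% with shBrca2-CM. Of 13 tested eIF2 kinases, eIF2 subunits and partner factors, 0 were higher and 2 lower between the conditioned media (2 higher and 3 lower at an unadjusted p-value under 0.05 by edgeR; 0 higher and 1 lower by DESeq2). Atf3, a stress-induced partner of ATF4, was at 14.5, 17.4 and 9.76 CPM with shBrca2-CM, at 30.8, 30.9 and 34.0 CPM with shControl-CM and at 12.7 and 15.7 CPM in control medium. Cebpb, another partner and a factor of inflammatory genes, was at 405, 462 and 470 CPM, at 659, 652 and 810 CPM and at 231 and 233 CPM in the same order. Atf3 showed the pattern of Stc2 and Ppp1r15a, with shControl-CM alone at the top, whereas Cebpb was above control medium in both. Their log2 fold changes between the conditioned media were -1.20 (Atf3, SE 0.29, adjusted p = 0.0611 by edgeR) and -0.64 (Cebpb, SE 0.13, adjusted p = 0.0217 by edgeR). Against control medium 5 of this list were higher and 1 lower with shControl-CM, and 4 and 1 with shBrca2-CM. The list's median log2 fold change was -0.22 between the conditioned media, 0.70 with shControl-CM and 0.05 with shBrca2-CM.

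For the 5 lists that follow without a call between the conditioned media, DESeq2 made none either. Of the 10 amino acid transporters, 0 were called between the conditioned media (1 higher and 1 lower at an unadjusted p-value under 0.05 by edgeR), and against control medium 1 was higher and 4 lower with shControl-CM and 2 higher and 2 lower with shBrca2-CM (1 higher and 2 lower by DESeq2). Slc6a9, a glycine transporter, rose with both media: with shControl-CM (290 ± 50 against 121 ± 24.2 CPM, SD of 3 and 2 libraries; log2 fold change 1.25, adjusted p = 0.00134 by edgeR) and with shBrca2-CM (215 ± 37.9 CPM; 0.85, adjusted p = 1.22e-05 by edgeR). Slc7a11, the cystine importer, rose with shBrca2-CM from a low level (5.79, 6.22 and 1.78 CPM, or 4.59 ± 2.45, against 1.36 ± 0.204 CPM; log2 fold change 1.62, adjusted p = 0.0558 by edgeR). With shControl-CM it was at 1.39, which was not called (adjusted p = 0.119 by edgeR), and between the conditioned media at 0.28 (adjusted p = 0.908 by edgeR). Of the aminoacyl-tRNA synthetases, which charge tRNAs, 0 of 13 tested were called between the conditioned media, and 0 had an unadjusted p-value under 0.05 by edgeR. Against control medium 3 of 14 were higher and 2 lower with shControl-CM and 2 higher and 2 lower with shBrca2-CM. Aars rose (log2 fold change 0.85, adjusted p = 0.00673 by edgeR) and Iars fell (log2 fold change -1.25, adjusted p = 0.0238 by edgeR) with shControl-CM. With shBrca2-CM Aars also rose (0.59, adjusted p = 0.000518 by edgeR) and Iars also fell (-0.56, adjusted p = 0.00403 by edgeR). The median log2 fold changes were 0.12, -0.27 and -0.12 for the transporters and 0.04, -0.02 and 0.08 for the synthetases, between the conditioned media, with shControl-CM and with shBrca2-CM.

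Of the translocation and glycosylation genes 0 of 20 tested were called between the conditioned media (4 lower at an unadjusted p-value under 0.05 by edgeR), and of 21 tested against control medium 5 were higher and 4 lower with shControl-CM and 2 higher and 4 lower with shBrca2-CM. Sec61g, a subunit of the translocation channel, was at 8.33, 16.4 and 4.75 CPM with shControl-CM and at 1.04 and 0 CPM in control medium (log2 fold change 3.93, adjusted p = 0.00531 by edgeR). Dad1, a subunit of the oligosaccharyltransferase, was at 439, 528 and 529 CPM and at 104 and 129 CPM in the same groups (log2 fold change 2.09, adjusted p = 3.69e-05 by edgeR). With shBrca2-CM against control medium Dad1 was called higher too (1.65, adjusted p = 3.84e-13 by edgeR), and Sec61g was not called (2.66). Of the 18 genes of COPII and ER-to-Golgi transport, 1 was lower between the conditioned media: Kdelr3, a receptor that returns escaped ER proteins, was at 162, 134 and 143 CPM with shBrca2-CM, at 191, 252 and 233 CPM with shControl-CM and at 146 and 140 CPM in control medium (log2 fold change -0.60, adjusted p = 0.076 by edgeR). Against control medium 4 of the 18 were higher and 6 lower with shControl-CM, and 2 higher and 7 lower with shBrca2-CM.

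Of 18 other ER folding enzymes, 0 were called between the conditioned media (1 lower at an unadjusted p-value under 0.05 by edgeR), 5 were higher and 3 lower with shControl-CM, and 1 was higher and 4 lower with shBrca2-CM. The 2 with the largest changes were Erp44 (log2 fold change 2.52, adjusted p = 0.01 by edgeR) and Ero1l (log2 fold change 2.13, adjusted p = 0.0286 by edgeR), both higher with shControl-CM from levels near the floor, at 4.49 ± 1.38 against 0.757 ± 0.158 CPM and at 5.39 ± 3.02 against 1.17 ± 0.175 CPM. Of 15 other degradation genes, 0 were called between the conditioned media (2 higher at an unadjusted p-value under 0.05 by edgeR), 2 were higher and 2 lower with shControl-CM, and 3 higher and 2 lower with shBrca2-CM. Erlec1, an ER lectin, was at 26.9, 20.3 and 16.3 CPM with shControl-CM and at 1.56 and 0.645 CPM in control medium (log2 fold change 4.16, adjusted p = 0.000165 by edgeR). The ubiquitin ligase Rnf5 was at 44.2, 51.2 and 38.0 CPM and at 152 and 164 CPM (log2 fold change -1.84, adjusted p = 9e-05 by edgeR). With shBrca2-CM against control medium Erlec1 was called higher (4.12, adjusted p = 1e-11 by edgeR) and Rnf5 lower (-1.82, adjusted p = 4.67e-13 by edgeR) as well. Median log2 fold changes of the 4 ER lists lay between -0.24 and 0.00 between the conditioned media, between -0.27 and 0.25 with shControl-CM and between -0.42 and 0.08 with shBrca2-CM.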

How the data were processed

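PSC libraries (8, in 3 groups) were made by the MARS-seq protocol, which sequences the 3′ ends of mRNA. Raw read counts per gene, without normalization, are what the authors deposited; the submitters' processing notes name bcl2fastq, cutadapt, STAR 2.4.2a, HTSeq, DESeq2 and the mm10 build, and how the genes were selected and molecular identifiers treated is not given in the sources used here. Samples were grouped by their treatment label, and 1 per-sample column, which carries the control medium's name but matched no sample, was not used, which leaves 2 control libraries. The members and lists were chosen with earlier results of these data known.

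Every comparison had a fit of its own, of its 2 groups only, in edgeR 4.0.16 under R 4.3.3 (TMM scaling, genes with at least 10 counts over the libraries fitted, quasi-likelihood test), and p-values were adjusted over all genes tested by the Benjamini-Hochberg method. Standard errors were taken as the absolute log2 fold change divided by the square root of the F statistic. The test was checked on simulated counts. Members called in any comparison were described by library. From each further list at most 3 genes called between the conditioned media, or else at most 2 called against control medium, were named by the size of their fold change. Alternatives were DESeq2 1.42.0 (likelihood ratio test, size factors), total counts, other filters and thresholds, 1 fit of all groups, a replicate block, thinned libraries and each library left out. A GC offset was added after the data were seen; 97.3% of genes had a GC value, from GRCm39 transcripts. Counts of 3 or fewer are taken as a floor, which covers counting error only.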

Additional observations from a re-analysis of the deposited data

How the results depend on the processing

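No member's called fold change changed sign under any alternative run. The stricter thresholds (adjusted p under 0.05 and absolute log2 fold change over 1) left 1 lower ATF4 arm member between the conditioned media, 2 higher ATF4 arm members with shControl-CM and 0 with shBrca2-CM against control medium, and 4 lower and 1 higher ER arm members with either medium (Atf6 higher with shControl-CM, Hyou1 with shBrca2-CM), beside 1287 lower and 1088 higher of 12086 genes with shControl-CM and 1114 and 1071 of 12049 with shBrca2-CM. With at least 5 counts in every library, 1 ER arm member was higher with shBrca2-CM against control medium, beside 1918 of 8225 genes. In the fit of all 3 groups, 2 were higher with shControl-CM, beside 2287 of 12086 genes. Libraries thinned to the smallest total gave 1 lower ER arm member between the conditioned media and 5 with shControl-CM against control medium, fewer counts being the construction of that setting. Over all genes 176 of 10410 and 1374 of 10214 were lower there. Dnajb9, Pdia4 and Herpud1 were not called with shControl-CM in that setting, nor Dnajc3 (-0.03), Herpud1 (-0.32) and Hyou1 (0.78) with shBrca2-CM. The GC offset gave 3 higher ER arm members with shControl-CM, and 4 higher and 6 lower with shBrca2-CM; beyond the composition values given above, the cause was not tested.

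When 1 library was left out at a time, higher ATF4 arm members with shBrca2-CM against control medium numbered 3 to 5, higher ER arm members between the conditioned media 0 to 3 and with shControl-CM 1 to 2, and lower ER arm members with shControl-CM 1 to 10. An arm left with 1 library was assumed to vary like the other group. Over all genes, calls between the conditioned media ranged from 128 to 976 in these fits, beside 345 with all libraries, and higher calls from 59 to 506, beside 174. When a conditioned medium library was the one left out, lower calls with shControl-CM against control medium ranged from 1738 to 2779, beside 2288. With shBrca2-CM, higher calls then ranged from 1880 to 2217, beside 2247, and lower calls from 2023 to 2293, beside 2308. Total counts in place of TMM split the calls between the conditioned media into 250 higher and 120 lower, beside 174 and 171, and with shControl-CM into 1798 and 2671, beside 2200 and 2288.

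Whether same-numbered libraries share a day or batch is not given in the sources used here. Their deviations correlated across genes at -0.066, 0.0277 and 0.163 between the conditioned media (replicates 1 to 3). For replicates 1 and 2 the correlations were 0.151 and 0.00497 between shControl-CM and control medium. They were 0.0397 and -0.00784 between shBrca2-CM and control medium. With the replicate block, 3 ATF4 arm members were lower between the conditioned media, 8 ER arm members were lower with shControl-CM and 9 with shBrca2-CM, where Dnajc3 (-0.49) and Calr (-0.50) were not called. Over all genes the block called 152 of 11035, 2319 of 12086 and 1970 of 12049 lower, in the same order. Counts were low in the shallow shBrca2-CM libraries for Vldlr, Sdf2l1, Hyou1, Dnajb9 and Eif2ak3, among others.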
